A study of Mus musculus with 12 samples.

Results

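The genes described here were 45 named lysosome genes of the mouse: acid hydrolases, lipid transfer proteins and activators, membrane proteins, subunits of the proton pump and a pair of transcription factors. They were taken by name, as the rows for these symbols among the 49315 gene identifiers counted, with no threshold on a measured value, though the list was drawn up with earlier results of these data known. Each symbol matched 1 identifier, and all 45 were among the 17416 genes with enough counts to be tested. RNA was measured in primary mouse adult fibroblasts (MAFs), connective tissue cells grown from the ears of mice, by RNA-seq of 12 libraries. The cells came from adult female wild-type mice of the C57BL6/J strain (WT) or from mice lacking the clock gene Bmal1 (BMAL1 -/-, here KO). In each genotype, the senescent cells had received 20 Gy of X-rays and the control cells a sham exposure. By the study's methods the irradiated cells were then cultured for some weeks, and no such time is stated for the controls. Irradiation and time in culture therefore cannot be told apart. All 12 cultures, controls included, were grown at 3% O2, were given dexamethasone (100 nM), a steroid used to bring the clocks of cultured cells into step, and were collected 12 h later. Each of the 4 groups (control and senescent, in WT and in KO) had 3 libraries. The labels do not say whether libraries of a group came from separate mice or cultures, so each p-value measures only the spread between these samples and may be technical.

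Lysosomes are acidic compartments in which hydrolases made in the endoplasmic reticulum break down proteins, glycans and lipids delivered by endocytosis and autophagy. The vacuolar proton pump (V-ATPase) keeps their lumen acidic, membrane glycoproteins line the limiting membrane, and the transcription factors TFEB and TFE3 switch on many lysosome genes once they enter the nucleus. Senescent cells are known for an enlarged lysosomal compartment, and the activity most used to stain them, senescence-associated beta-galactosidase, comes from the lysosomal enzyme encoded by Glb1.

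Libraries held 23923030 to 31736083 counts, and 3 counts, taken as the detection floor, were worth 0.101 to 0.135 CPM (counts per 1e6 counts of the library, scaled by TMM factors). Each of the 45 genes had at least 19 counts in every library, and the median coefficient of variation between the 3 libraries of a group was 3.02% to 4.70% for these genes against 6.77% to 9.23% for all genes tested. RNA of the deleted gene, listed as Arntl, was lower in every KO library than in any WT library: it lay at 11.8 to 15.2 CPM in KO control, 25.3 to 27.4 CPM in KO senescent and 29.8 to 37.3 CPM in the 6 WT libraries. The counts are 1 number per gene, so the deleted part of Arntl cannot be told apart from the rest. Fibroblast markers were abundant, but cartilage markers, described below, were too, with a sum of 8745 to 10808 CPM in WT control. The 10 markers of the fibroblast list (Col1a1, Col1a2, Dcn, Pdgfra and others) summed to 20020 to 20831 CPM in WT control and 24978 to 26344 CPM in KO control. In the senescent libraries the sum was 9852 to 10258 CPM in WT and 11738 to 12156 CPM in KO. The sum follows abundant collagens such as Col1a1 (log2 fold change -2.06 in WT and -1.66 in KO): by gene, 6 of the 10 rose and 4 fell in WT, and 4 rose and 5 fell in KO, with median changes of 0.58 and 0.06. The 14 macrophage markers, of interest because macrophages are rich in lysosomes, summed to 13.7 to 23.7 CPM in all 12 libraries. Of these, Ptprc (3.24 to 9.53 CPM), Cd14 (2.16 to 5.94 CPM), Laptm5 (1.72 to 4.95 CPM), Csf1r (1.93 to 3.42 CPM) and Mrc1 (0.204 to 1.67 CPM) were over the floor in every library. Lyz2 reached 3.13 CPM, Fcer1g 0.476 CPM, Itgam 0.390 CPM, C1qc 0.282 CPM and Aif1 0.258 CPM. Adgre1, Tyrobp, C1qa and C1qb had no more than 0.177 CPM in any library.

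In WT fibroblasts, senescence went with more RNA from most of the lysosome genes. Of the 45, 36 rose, 3 fell (Gusb, Ctsk and Tfe3) and 6 did not pass the test in the comparison of WT senescent with WT control cells (edgeR quasi-likelihood test, Benjamini-Hochberg adjusted p under 0.05). Across all genes tested, 29.2% rose and 27.0% fell, and the median log2 fold change was 0.58 for the 45 genes and 0.02 for all genes. The changes were mostly under 2-fold: 6 of the 45 rose by a log2 fold change over 1, the size at which the study's methods call a differentially expressed gene (DEG), against 11.6% of all genes. With total counts in place of TMM factors, which raised the median of all genes by 0.17, the number was 11. The 6 were Ctsd, Gm2a, Ctsl, Fuca1, Gla and Ctsb. None of the 45 fell by that much, either in edgeR, at an unadjusted p under 0.05 or in DESeq2 (0 genes each), against 5.90% of all genes.

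In KO fibroblasts, 30 of the 45 rose, 7 fell (Gusb, Arsb, Ctsk, Ctss, Grn, Tfeb and Tfe3) and 8 did not pass the test, where 28.5% of all genes rose and 28.6% fell. The median log2 fold change was 0.41 for the 45 genes and -0.00275 for all genes. Gm2a, Ctsd, Ctsl and Ctsb were DEGs, 4 of 45 against 11.2% of all genes. None was a DEG in the lower direction (0 genes in edgeR, at an unadjusted p and in DESeq2), against 7.58% of all genes. The WT and KO comparisons share no library: 29 genes rose in both, 3 fell in both, and 1, Grn, rose in WT and fell in KO. Of all 17416 genes tested, 3533 rose in both, 3471 fell in both and 314 passed in opposite directions. Across the 45 genes the WT and KO log2 fold changes had r = 0.91 and rho = 0.91, and across all 17416 genes r = 0.82 and rho = 0.74. Genes are not independent replicates, and no p is given for these values.

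**Figure D1:**
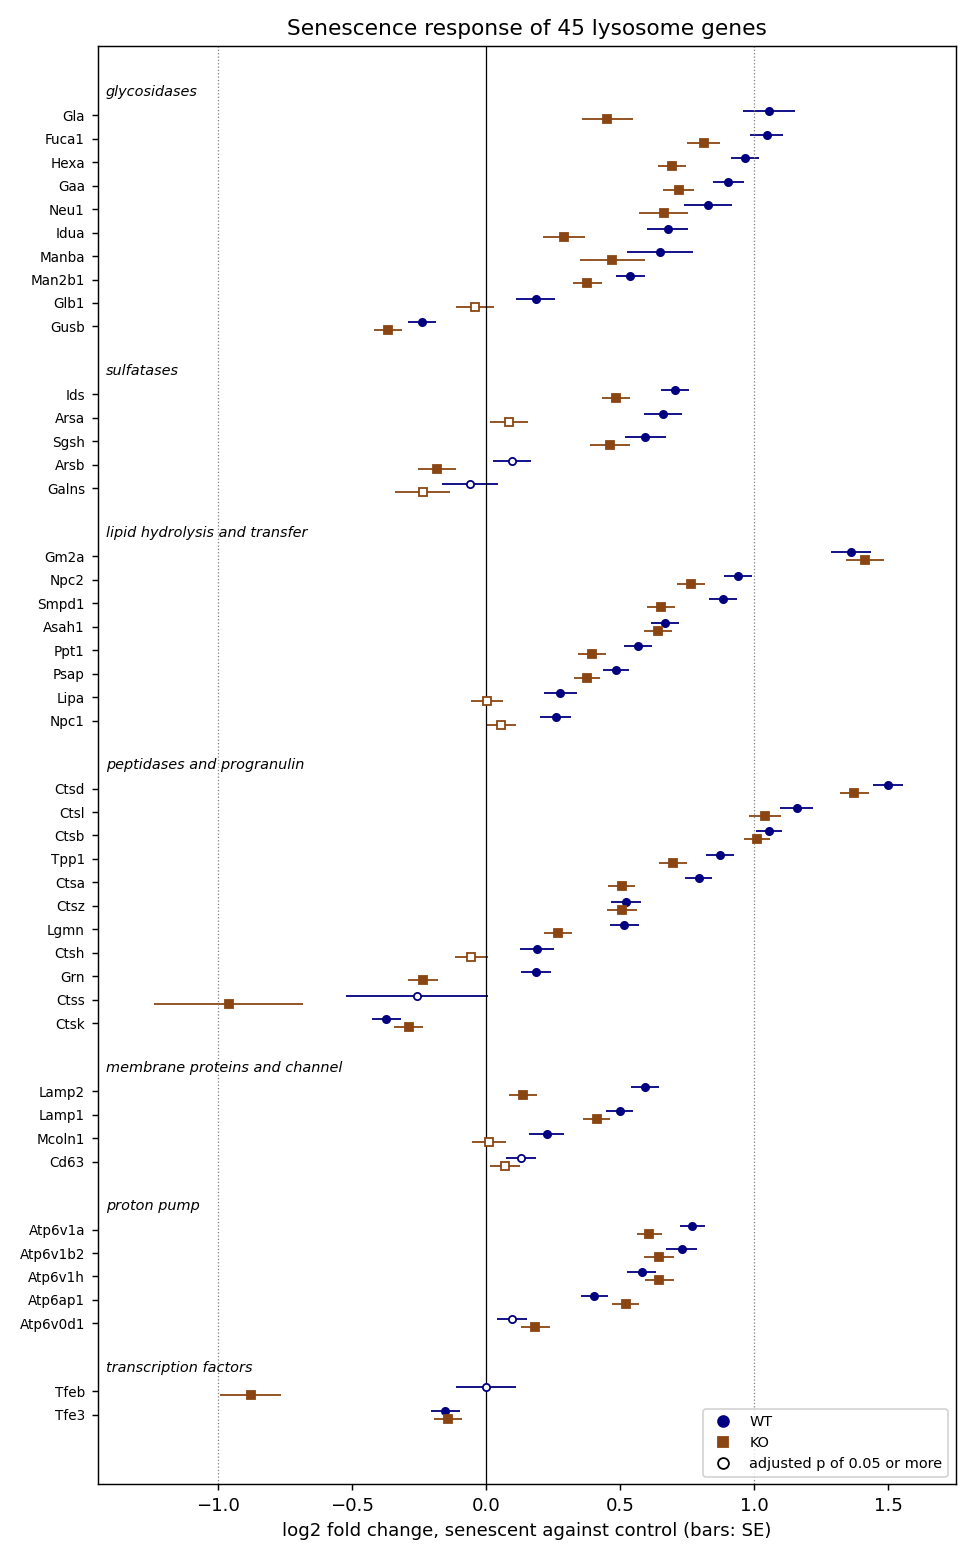
Log2 fold change of senescent against control cells (x axis, bars are SE) for the 45 genes in WT (circles) and KO (squares), grouped by role, with open symbols where the adjusted p was 0.05 or more and dotted lines at a log2 fold change of 1 in size. In WT, 36 genes rose and 3 fell, in KO 30 rose and 7 fell, and the KO value lay below the WT value in 39 of the 45 genes (9227 of 17416 among all genes tested).

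Summed over the 45 genes, the share of all counts was 0.514% to 0.539% in WT control and 0.920% to 0.957% in WT senescent libraries. In KO it was 0.588% to 0.598% in control and 0.920% to 0.987% in senescent libraries. The control and senescent ranges did not overlap in either genotype. Peptidases made up the largest part, at 0.156% to 0.167% of counts in WT control and 0.351% to 0.368% in WT senescent libraries. In bulk RNA, fewer cells of a type and less RNA per cell cannot be told apart.

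**Figure D2:**
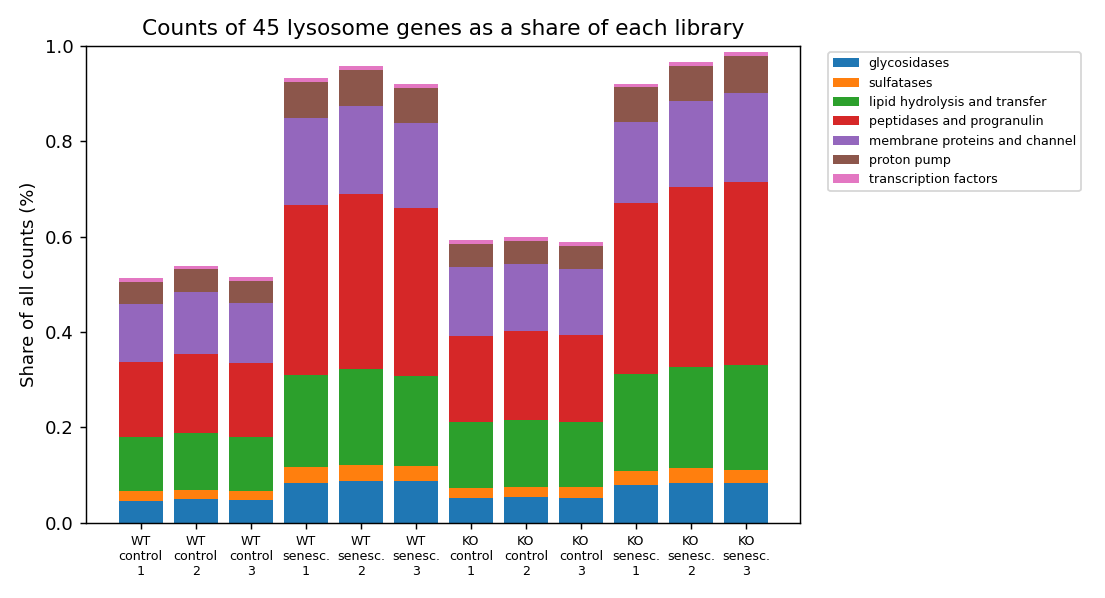
Counts of the 45 genes as a share of all counts of each of the 12 libraries (y axis, percent), stacked by role. The 6 senescent libraries lie at 0.920% to 0.987% and the 6 control libraries at 0.514% to 0.598%.

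Glb1 changed little beside the other glycosidases. Glb1 (ENSMUSG00000045594) lies on the plus strand of chr9:114401076-114474898 in GRCm38 and had 36.1, 37.9 and 41.1 CPM in the WT control and 39.6, 45.9 and 45.2 CPM in the WT senescent libraries. The WT groups overlapped, since the highest control library lay above the lowest senescent one. The log2 fold change was 0.18 ± 0.07 (SE, adjusted p = 0.0335) in WT. That call was lost in 6 of the 20 alternatives, with the highest adjusted p, 0.167, without WT control replicate 1. In KO, control libraries had 48.1, 46.3 and 46.6 CPM and senescent libraries 42.1, 47.9 and 47.0 CPM, groups that overlapped too, and the change was -0.04 ± 0.07 (SE, adjusted p = 0.636). Some 5.49% of the exon length of Glb1 is shared with Tmppe on the same strand, where counting could split reads.

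The other 9 glycosidases cut sugars from glycoproteins, glycolipids, glycogen and glycosaminoglycans. Of these, 8 rose in WT and in KO, against 29.2% and 28.5% of all genes. Gla (ENSMUSG00000031266, minus strand of chrX:134588149-134601125), whose enzyme removes terminal alpha-galactose from glycolipids, had 12.6, 12.3 and 11.0 CPM in the WT control and 24.1, 27.5 and 22.8 CPM in the WT senescent libraries. In KO it had 15.6, 14.6 and 14.9 CPM in control and 21.1, 22.5 and 18.1 CPM in senescent libraries. Senescent libraries lay above control libraries in both genotypes, with changes (log2) of 1.05 ± 0.10 (SE, adjusted p = 8.05e-09) in WT and 0.45 ± 0.10 (SE, adjusted p = 0.000388) in KO. Fuca1, the alpha-fucosidase, rose from 60.6, 67.4 and 72.8 CPM to 134, 139.6 and 141 CPM in WT, and from 75.6, 78.8 and 73.7 CPM to 129, 141 and 130.4 CPM in KO. Its groups did not overlap, and the changes were 1.05 ± 0.06 (SE, adjusted p = 5.75e-12) in WT and 0.81 ± 0.06 (SE, adjusted p = 2.63e-10) in KO. Hexa, a subunit of beta-hexosaminidase, rose by 0.97 in WT and 0.69 in KO, and Gaa, the alpha-glucosidase that degrades glycogen, by 0.90 and 0.72. Neu1, the sialidase, rose by 0.83 and 0.66. The mannosidases Man2b1 (0.54 and 0.38) and Manba (0.65 and 0.47) and the iduronidase Idua (0.68 and 0.29) rose less.

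Gusb, the beta-glucuronidase, went the other way. It had 88.1, 88.8 and 97.2 CPM in the WT control and 78.1, 73.9 and 80.1 CPM in the WT senescent libraries. In KO it had 93.0, 93.6 and 95.3 CPM in control and 71.5, 74.6 and 72.6 CPM in senescent libraries. Every senescent library lay below every control library of its genotype. Gusb fell, by the log2 values -0.24 ± 0.05 (SE, adjusted p = 0.00058) in WT and -0.37 ± 0.05 (SE, adjusted p = 4.52e-06) in KO. The WT call was lost with total counts in place of TMM factors (adjusted p = 0.219).

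The 5 sulfatases, which strip sulfate from glycosaminoglycans and sulfatides, were split. Ids, the iduronate sulfatase, had 99.1, 103 and 97.0 CPM in the WT control and 157, 168 and 163 CPM in the WT senescent libraries, and 102, 111 and 108 CPM and 152, 154 and 141 CPM in KO. All its senescent libraries lay above its control libraries, with changes of 0.70 ± 0.05 (SE, adjusted p = 3.37e-10) in WT and 0.48 ± 0.05 (SE, adjusted p = 9.38e-08) in KO. Sgsh, the heparan sulfamidase, rose by 0.59 in WT and 0.46 in KO. Arsa, the sulfatide sulfatase, had 32.3, 34.2 and 30.4 CPM in the WT control and 48.4, 52.5 and 52.2 CPM in the WT senescent libraries, without overlap, and rose by 0.66 ± 0.07 (SE, adjusted p = 8.18e-08). In KO it had 38.6, 42.1 and 42.1 CPM in control and 39.3, 46.6 and 44.4 CPM in senescent libraries, which overlapped, and the change was 0.08 ± 0.07 (SE, adjusted p = 0.319). Galns, which acts on keratan and chondroitin sulfate, had 12.3, 13.5 and 11.7 CPM in the WT control and 11.2, 12.2 and 12.7 CPM in the WT senescent libraries, and 15.2, 12.8 and 14.7 CPM and 11.6, 11.2 and 13.3 CPM in KO. Its groups overlapped in both genotypes, with changes of -0.06 ± 0.10 (SE, adjusted p = 0.652) in WT and -0.24 ± 0.10 (SE, adjusted p = 0.0549) in KO. Arsb, the dermatan and chondroitin sulfatase, had a change of 0.10 ± 0.07 (SE, adjusted p = 0.261) in WT and fell in KO by 0.18 ± 0.07 (SE, adjusted p = 0.0325), a call lost in 7 alternatives. Exons of other genes cover 39.9% of Arsb, 21.6% of Sgsh and 18.8% of Arsa exon length, so counts of these genes are less certain.

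All 8 genes of lipid breakdown and transfer rose in WT, and 6 of them rose in KO, against 29.2% and 28.5% of all genes. Gm2a (ENSMUSG00000000594, plus strand of chr11:55098115-55113029), the activator that presents ganglioside GM2 to hexosaminidase, had 17.3, 16.2 and 15.6 CPM in the WT control and 42.1, 41.5 and 42.7 CPM in the WT senescent libraries. In KO it had 17.5, 17.5 and 18.4 CPM in control and 43.4, 51.7 and 46.9 CPM in senescent libraries. The groups lay far apart in both genotypes, 2.57-fold in WT and 2.66-fold in KO, with log2 fold changes of 1.36 ± 0.07 (SE, adjusted p = 1.63e-12) and 1.41 ± 0.07 (SE, adjusted p = 6.05e-13). Npc2, the soluble cholesterol carrier, rose by 0.94 in WT and 0.76 in KO, and Asah1, the acid ceramidase, by 0.66 and 0.64. Smpd1, the acid sphingomyelinase, had 45.2, 46.6 and 41.9 CPM in the WT control and 81.8, 82.2 and 82.7 CPM in the WT senescent libraries, and 49.96, 51.99 and 49.97 CPM and 78.3, 79.9 and 80.3 CPM in KO. Its groups did not overlap, and it rose by 0.88 in WT and 0.65 in KO. Ppt1, the palmitoyl thioesterase, rose by 0.57 and 0.39 and Psap, the precursor of the saposin activators, by 0.48 and 0.38. Psap, at 246.9 RPKM (CPM per kilobase of exon), had the highest level of the 45 genes in WT control cells. Npc1, the membrane partner of Npc2 in cholesterol export, had 59.5, 61.8 and 63.3 CPM in the WT control and 70.5, 73.9 and 76.4 CPM in the WT senescent libraries, without overlap, and rose by 0.26 ± 0.06 (SE, adjusted p = 0.000592). In KO, Npc1 had 65.1, 70.3 and 71.9 CPM in control and 71.0, 75.5 and 68.9 CPM in senescent libraries, which overlapped, and the change was 0.05 ± 0.06 (SE, adjusted p = 0.429). Lipa, the acid lipase that frees cholesterol from its esters, rose by 0.28 ± 0.06 (SE, adjusted p = 0.000618) in WT and had a change of 0.00 ± 0.06 (SE, adjusted p = 0.969) in KO.

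Among the 11 peptidases and progranulin, the cathepsins B, D and L moved most. Ctsd (ENSMUSG00000007891, minus strand of chr7:142375911-142388038), the main aspartic protease of lysosomes, had 403, 443 and 402 CPM in the WT control and 1161, 1206 and 1155 CPM in the WT senescent libraries. In KO it had 428, 491 and 461 CPM in control and 1157, 1219.7 and 1199 CPM in senescent libraries. Its senescent libraries lay far above its control libraries, 2.82-fold in WT and 2.59-fold in KO, with log2 fold changes of 1.50 ± 0.06 (SE, adjusted p = 5.43e-15) and 1.37 ± 0.06 (SE, adjusted p = 1.37e-14). At 499.4 RPKM in WT senescent and 507 RPKM in KO senescent cells, Ctsd had the highest level of the 45 genes, while in WT control cells, at 177 RPKM, it came after Psap. Exons of Gm49369, on the same strand, cover 34.4% of Ctsd, so reads could be split or left out there.

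Ctsl (ENSMUSG00000021477, minus strand of chr13:64359337-64370890) and Ctsb (ENSMUSG00000021939, plus strand of chr14:63122462-63145923) encode cysteine proteases. Ctsl rose from 189, 182 and 193 CPM to 420.4, 425 and 414 CPM in WT and from 309.9, 284 and 267 CPM to 545, 586 and 639 CPM in KO. The 4 groups of Ctsl did not overlap at all, with KO above WT in each condition, and the senescence changes were 1.16 ± 0.06 (SE, adjusted p = 1.07e-12) in WT and 1.04 ± 0.06 (SE, adjusted p = 4.75e-12) in KO. Ctsb rose from 413, 436 and 443 CPM to 891, 924 and 869.9 CPM in WT and from 454, 464 and 455 CPM to 892, 956 and 917 CPM in KO. Control and senescent groups lay apart in both genotypes, with changes of 1.05 ± 0.05 (SE, adjusted p = 1.1e-13) in WT and 1.01 ± 0.05 (SE, adjusted p = 1.84e-13) in KO. The KO changes of both lie near the size that defines a DEG: Ctsb was a DEG in 16 and Ctsl in 18 of the 20 alternatives, and 2 of the 45 genes were DEGs in KO without KO control replicate 3. Ctsl shares 32.9% of its exon length with Gm47123 and Gm49230, and Ctsb 12.8% with Fdft1.

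The other proteases were less uniform. Tpp1, a tripeptidyl peptidase, rose by 0.87 in WT and 0.70 in KO. Ctsa, a carboxypeptidase that also protects the sialidase, rose by 0.79 and 0.51. Ctsz, another carboxypeptidase, rose by 0.52 and 0.51. Lgmn, the asparaginyl endopeptidase that processes cathepsins, had 51.3, 55.0 and 52.3 CPM in the WT control and 75.4, 75.5 and 75.8 CPM in the WT senescent libraries, and 55.2, 58.0 and 55.7 CPM and 64.2, 69.8 and 69.3 CPM in KO. Its groups did not overlap, and it rose by 0.51 in WT and 0.27 in KO. Ctsh, an aminopeptidase, rose by 0.19 ± 0.06 (SE, adjusted p = 0.0141) in WT, with a change of -0.06 ± 0.06 (SE, adjusted p = 0.454) in KO. Its WT call was lost in 2 alternatives (highest edgeR adjusted p = 0.148, without WT control replicate 1). Grn, which encodes progranulin, a secreted and lysosomal glycoprotein, had 136, 147 and 149 CPM in the WT control and 157, 173 and 161 CPM in the WT senescent libraries, and 172, 189 and 179 CPM and 146, 157 and 155 CPM in KO. The senescent libraries lay above control in WT and below control in KO, with changes of 0.18 ± 0.06 (SE, adjusted p = 0.00828) and -0.24 ± 0.06 (SE, adjusted p = 0.00103). The WT call of Grn was lost in 2 alternatives (highest adjusted p = 0.0712) and the KO call in 1 (adjusted p = 0.179).

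Ctsk and Ctss did not follow the other cathepsins. Ctsk, the collagen-degrading cathepsin, had 73.1, 79.3 and 74.9 CPM in the WT control and 58.4, 60.4 and 56.5 CPM in the WT senescent libraries, and 81.4, 84.2 and 82.7 CPM and 63.9, 69.3 and 69.8 CPM in KO. It fell in both genotypes without overlap, with changes of -0.37 ± 0.05 (SE, adjusted p = 5.47e-06) in WT and -0.29 ± 0.05 (SE, adjusted p = 9.61e-05) in KO. Ctss, a cathepsin of antigen-presenting cells, had 2.17, 2.00 and 1.63 CPM in the WT control and 1.80, 1.28 and 1.77 CPM in the WT senescent libraries, and 1.72, 1.65 and 2.23 CPM and 0.965, 0.674 and 1.22 CPM in KO. Its WT groups overlapped and its KO groups did not, and the changes were -0.26 ± 0.27 (SE, adjusted p = 0.429) in WT and -0.96 ± 0.28 (SE, adjusted p = 0.00572) in KO. Ctss had the lowest level of the 45 genes in KO senescent cells, at 0.701 RPKM.

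Of the membrane proteins, both major glycoproteins of the limiting membrane rose. Lamp2 (ENSMUSG00000016534, minus strand of chrX:38401357-38456454) had 308, 316 and 308 CPM in the WT control and 458, 491 and 454 CPM in the WT senescent libraries, and 358, 397 and 385 CPM and 413, 436 and 405 CPM in KO. The groups did not overlap in either genotype, but the gap was narrower in KO, with changes of 0.59 ± 0.05 (SE, adjusted p = 3.76e-09) in WT and 0.14 ± 0.05 (SE, adjusted p = 0.0288) in KO. The KO call was lost in 4 alternatives, with the highest adjusted p, 0.157, without KO control replicate 1. Lamp1 rose by 0.50 in WT and 0.41 in KO.

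Mcoln1, the calcium channel of the lysosomal membrane, had 33.4, 32.2 and 35.5 CPM in the WT control and 37.8, 38.7 and 41.6 CPM in the WT senescent libraries, and 35.3, 36.3 and 34.5 CPM and 35.9, 36.8 and 34.2 CPM in KO. It rose in WT by 0.22 ± 0.06 (SE, adjusted p = 0.00537), without overlap, and its KO groups overlapped, with a change of 0.01 ± 0.06 (SE, adjusted p = 0.906). Cd63, a tetraspanin of late endosomes, had 588, 660.4 and 671 CPM in the WT control and 702, 692 and 704 CPM in the WT senescent libraries, and 733, 666 and 673 CPM and 694, 739 and 742 CPM in KO. Its groups overlapped in KO and not in WT, and it passed the test in neither, with changes of 0.13 ± 0.06 (SE, adjusted p = 0.054) and 0.07 ± 0.06 (SE, adjusted p = 0.294).

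Of the 5 proton pump genes, 4 rose in WT and all 5 in KO, against 29.2% and 28.5% of all genes. Atp6v1a, the catalytic subunit, had 105, 103 and 107 CPM in the WT control and 177, 183 and 176 CPM in the WT senescent libraries, and 108, 112 and 114 CPM and 168, 171 and 169 CPM in KO. Control and senescent libraries lay well apart, with changes of 0.77 ± 0.05 (SE, adjusted p = 1.03e-11) in WT and 0.61 ± 0.05 (SE, adjusted p = 3.79e-10) in KO. Atp6v1b2 and Atp6v1h, also of the cytosolic V1 sector, rose by 0.73 and 0.58 in WT and by 0.64 each in KO. The accessory subunit Atp6ap1 rose by 0.40 in WT and 0.52 in KO. Atp6v0d1, of the membrane V0 sector, had 74.8, 78.3 and 80.5 CPM in the WT control and 81.6, 83.9 and 84.1 CPM in the WT senescent libraries, and 78.5, 75.5 and 78.3 CPM and 82.0, 86.8 and 94.8 CPM in KO. The groups of Atp6v0d1 did not overlap but lay close, with changes of 0.10 ± 0.06 (SE, adjusted p = 0.153) in WT and 0.18 ± 0.06 (SE, adjusted p = 0.00784) in KO.

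RNA of the transcription factors did not rise with that of the other genes. Tfeb (ENSMUSG00000023990, plus strand of chr17:47737030-47792419) had 12.6, 14.2 and 12.7 CPM in the WT control and 13.8, 12.7 and 13.0 CPM in the WT senescent libraries, which overlapped, and the change was -0.00 ± 0.11 (SE, adjusted p = 0.995). In KO it had 12.9, 18.1 and 16.5 CPM in control and 8.10, 8.51 and 9.22 CPM in senescent libraries. All KO senescent libraries lay below all other libraries, and Tfeb fell in KO, with a change of -0.88 ± 0.11 (SE, adjusted p = 1.22e-06). Tfe3 had 72.9, 67.0 and 74.0 CPM in the WT control and 65.6, 64.4 and 62.2 CPM in the WT senescent libraries, and 73.0, 71.2 and 71.7 CPM and 63.1, 67.3 and 65.3 CPM in KO. It fell slightly, with changes of -0.15 ± 0.05 (SE, adjusted p = 0.0189) in WT and -0.14 ± 0.05 (SE, adjusted p = 0.0274) in KO, but with total counts in place of TMM factors these became 0.02 and 0.01. TFEB and TFE3 act mainly through their place in the cell, which RNA counts do not measure.

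**Figure D3:**
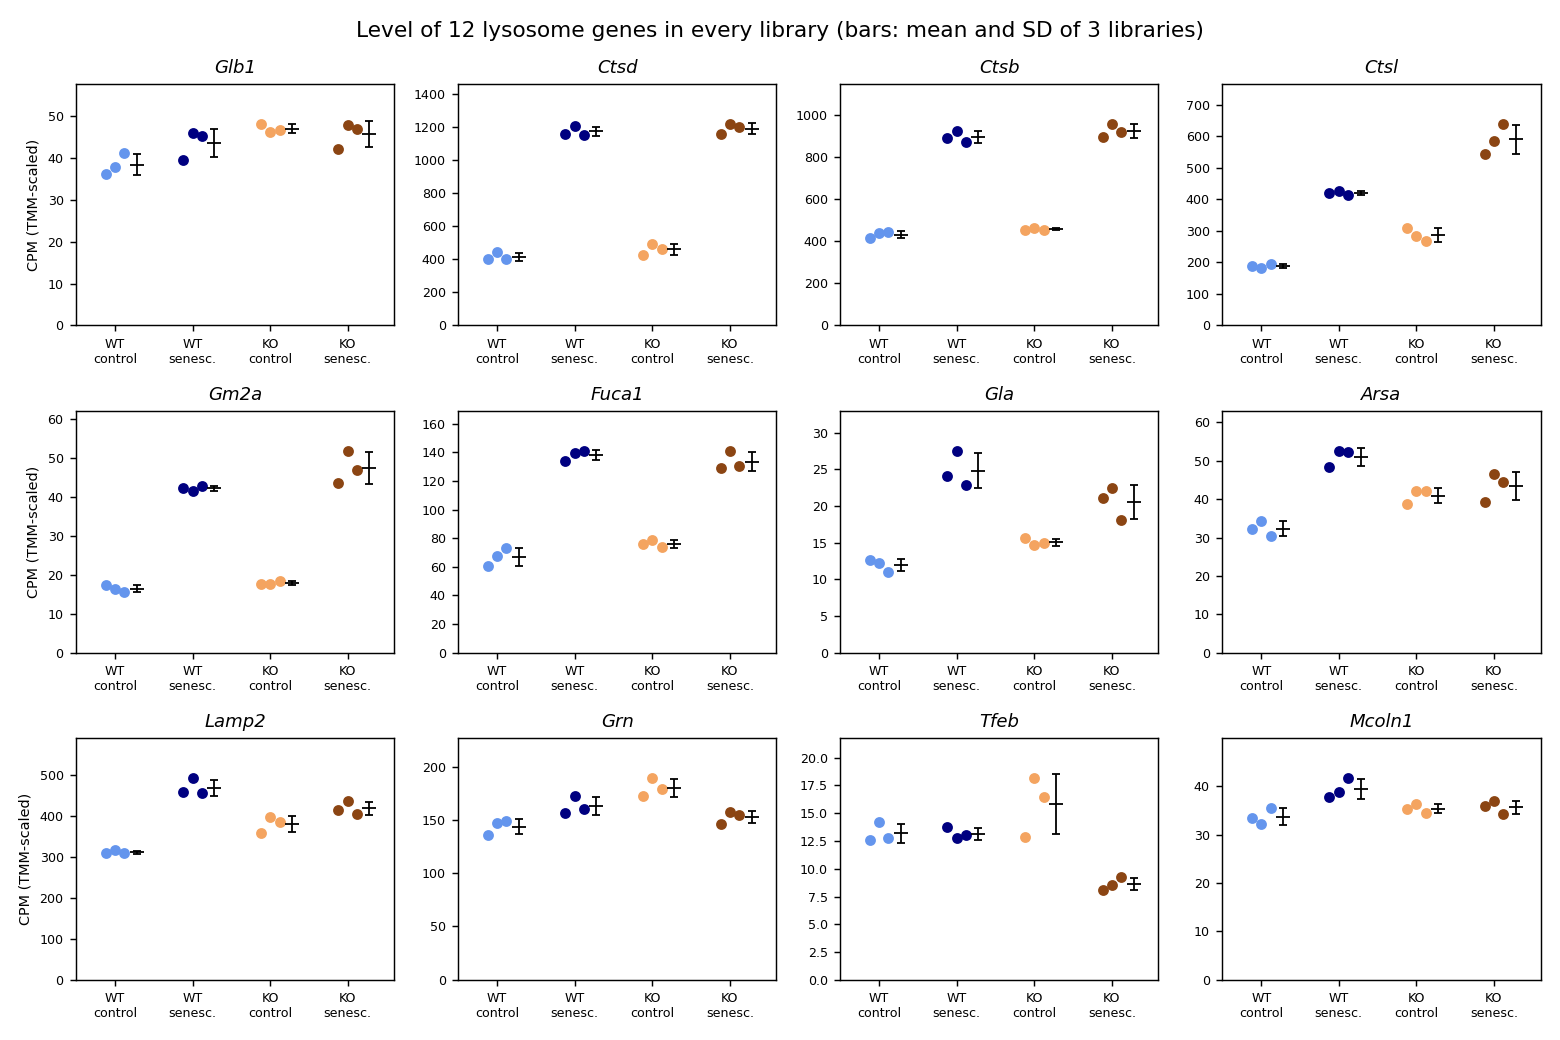
CPM in each library (points) with the mean and SD of 3 libraries (bars) for 12 of the genes, y axes starting at 0. Ctsd, Ctsb, Ctsl, Gm2a and Fuca1 are higher in senescent cells of both genotypes, and Glb1 shifts little. Gla, Arsa, Lamp2, Grn and Tfeb differ in their response between WT and KO.

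The promoters of these genes were read for the E-box core CACGTG, the letters bound both by TFEB and TFE3 and by BMAL1 with its partner CLOCK, and for TGAGTCA, a site of AP-1, the factor that the series title names. RefSeq windows of 250 bases before to 50 bases after the start (GRCm38.p6) were at hand for 38 of the 45 genes, all but Atp6v1h, Ctsb, Npc1, Atp6v1b2, Asah1, Galns and Ctsh. CACGTG, which reads the same on both strands, occurred in 13 of the 38, and in 8.09% of 27025 genes and 11.1% of 12041 genes tested here. TCACGTG on either strand occurred in 12 of the 38 (6.50% of genes tested), and TCACGTGA in 6, namely Gla, Ctsa, Ctsd, Mcoln1, Atp6v0d1 and Atp6v1a (2.01% of genes tested). These longer forms contain the E-box core, so the counts overlap. TGAGTCA on either strand occurred in 3 of the 38, Glb1, Neu1 and Psap, and in 4.91% of genes tested. A match describes the letters and does not show that a factor binds there. The stretches below from Gla, Ctsd, Mcoln1 and Atp6v1a hold TCACGTGA before the start, and for Gla only the first is shown. Stretches of Ctsa and Atp6v0d1, which reach past the start, are left out. Lamp1 was added for its E-box cores and Glb1 for its AP-1 letters and E-box core. All are written 5′ to 3′ on the strand of the gene, with the E-box core and AP-1 letters in capitals.
Gla, chrX:134601215-134601244, minus strand: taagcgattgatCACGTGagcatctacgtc
Ctsd, chr7:142387908-142387937, minus strand: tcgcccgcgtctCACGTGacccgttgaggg
Mcoln1, chr8:3500462-3500491, plus strand: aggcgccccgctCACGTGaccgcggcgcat
Atp6v1a, chr16:44139373-44139402, minus strand: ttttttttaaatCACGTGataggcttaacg
Lamp1, chr8:13159089-13159160, plus strand: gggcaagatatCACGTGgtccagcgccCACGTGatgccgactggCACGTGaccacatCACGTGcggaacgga
Glb1, chr9:114401014-114401048, plus strand: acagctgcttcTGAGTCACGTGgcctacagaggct

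By the GENCODE annotation, the stretches of Ctsd and Mcoln1 shown overlap exons of those genes, and that of Gla an exon of Hnrnph2. Lamp1 carried 4 E-box cores in the 72 bases before its start. In Glb1 the AP-1 letters and the E-box core shared 2 bases. For the 13 genes with an E-box core, the median change was 0.66 (log2) in WT and 0.45 in KO. Of these 13, 12 rose in WT and 10 in KO, against 29.2% and 28.5% of all genes. The 25 without one had medians of 0.54 and 0.38, with 18 and 16 of 25 higher, and included the genes that fell in WT (3) and in KO (7). The KO response less the WT one (the interaction, described below) had medians of -0.184 with an E-box core and -0.176 without. It was lower for 4 of 13 and 8 of 25 genes, against 11.7% of all genes. For KO against WT the medians were 0.145 with and 0.158 without in control cells, and -0.049 and -0.020 in senescent cells. No test of these differences was made.

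**Figure D4:**
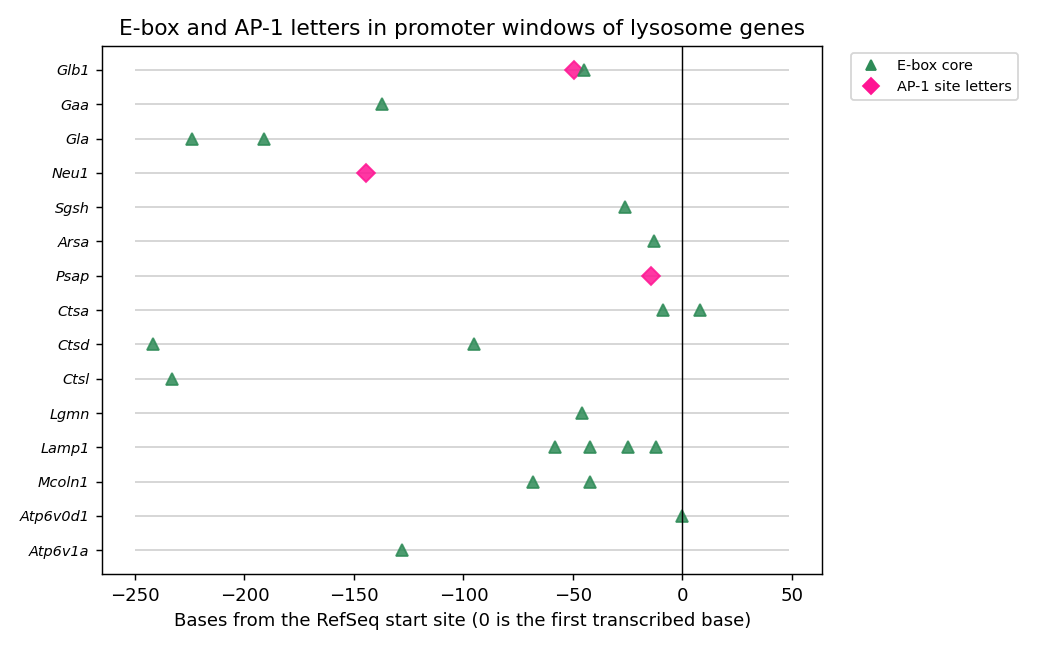
Places of the E-box core (triangles) and of the AP-1 letters (diamonds) in the promoter windows of the 15 genes that hold either, as bases from the RefSeq start (x axis), each grey line being 1 window. The 13 genes with an E-box core have it at up to 4 places (Lamp1), and in Glb1 the 2 kinds of letters overlap.

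The comparison of the senescence response between the genotypes asked whether loss of Bmal1 changed it, and was tested as the interaction (the KO log2 fold change less the WT one). Of the 45 genes, 12 had a smaller or more negative response in KO and 0 a larger one (also 0 at an unadjusted p and in DESeq2), where 11.7% of all genes were lower and 9.24% higher. The median interaction was -0.18 for the 45 genes and -0.03 for all genes. None was past a log2 size of 1 in either direction (0 genes in edgeR, at an unadjusted p and in DESeq2), against 1.15% of all genes higher and 2.51% lower. The 12 were Tfeb, Gla, Arsa, Lamp2, Grn, Idua, Ctsa, Hexa, Lipa, Lgmn, Smpd1 and Ids, so every role but the proton pump was represented. Of the 12 calls, 7 (Hexa, Gla, Arsa, Ctsa, Grn, Lamp2 and Tfeb) held in all 19 alternatives and 5 did not. Without KO control replicate 2 the count was 7, and without KO control replicate 1 it was 15. In the latter fit Tfeb was past a log2 size of 1 (-1.01).

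The sizes were modest apart from Tfeb. For Tfeb the interaction was -0.88 ± 0.16 (SE, adjusted p = 0.000656), for Gla -0.60 ± 0.14 (SE, adjusted p = 0.00349) and for Arsa -0.57 ± 0.10 (SE, adjusted p = 0.000427). Tfeb fell in KO and did not pass the test in WT, Gla rose in both, and Arsa rose in WT and did not pass the test in KO. For Lamp2 the interaction was -0.45 ± 0.07 (SE, adjusted p = 0.000215) and for Grn -0.42 ± 0.08 (SE, adjusted p = 0.000797). At the small end, Lgmn had -0.25 ± 0.08 (SE, adjusted p = 0.0234), Smpd1 -0.23 ± 0.07 (SE, adjusted p = 0.0306) and Ids -0.22 ± 0.07 (SE, adjusted p = 0.0412), calls lost in 5, 11 and 12 of the 19 alternatives. Idua (-0.39), Ctsa (-0.29), Hexa (-0.27) and Lipa (-0.27) lay between. The interaction of Glb1 was -0.23 ± 0.10 (SE, adjusted p = 0.121), and those of Ctsb and Gm2a were -0.05 ± 0.07 (SE, adjusted p = 0.693) and 0.05 ± 0.10 (SE, adjusted p = 0.776), none past the test.

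The genotypes were also set side by side within each condition. KO and WT counts were deposited as separate tables, 1 per genotype, so genotype and any difference between the 2 tables cannot be told apart. Each comparison below shares its libraries with the interaction. In control cells, 18 of the 45 genes were higher in KO and 0 lower (0 also at an unadjusted p and in DESeq2), against 8.07% and 4.96% of all genes, with a median of 0.16 for the 45 and 0.01 for all genes. None reached a log2 size of 1 (0 genes in edgeR, at an unadjusted p and in DESeq2), against 1.36% higher and 1.18% lower of all genes. The 18 were Glb1, Hexa, Gla, Man2b1, Arsa, Asah1, Smpd1, Lipa, Ppt1, Npc2, Psap, Ctsa, Ctsh, Ctsl, Tpp1, Grn, Lamp1 and Lamp2. Without WT control replicate 1 their number was 12.

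In control cells Ctsl differed most, by 0.61 ± 0.06 (SE, adjusted p = 4.42e-07), ahead of Ctsh (0.37 ± 0.06 (SE, adjusted p = 0.000334)) and Npc2 (0.36 ± 0.05 (SE, adjusted p = 5.38e-05)). Glb1 was higher by 0.29 ± 0.07 (SE, adjusted p = 0.00809), with all 3 KO control libraries above all 3 WT control libraries, and also above the 3 WT senescent libraries. The proton pump genes lay between -0.05 and 0.08 in control cells, and none passed the test.

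In senescent cells, 6 genes were higher in KO (Asah1, Npc2, Psap, Ctsk, Ctsl and Atp6ap1) and 8 lower (Gla, Neu1, Idua, Arsa, Arsb, Lgmn, Lamp2 and Tfeb), against 11.9% and 11.8% of all genes. The median was -0.01 for the 45 genes and -0.02 for all genes. No gene reached a log2 size of 1 (0 genes in edgeR, at an unadjusted p and in DESeq2), against 1.29% higher and 2.19% lower of all genes. Tfeb was lower by -0.61 ± 0.12 (SE, adjusted p = 0.000497) and Ctsl higher by 0.49 ± 0.06 (SE, adjusted p = 4.72e-06). Of the 8 lower calls, 2 (Arsb and Tfeb) held in all 19 alternatives, and the number was 3 without KO senescent replicate 1, 4 without WT senescent replicate 2 and 5 without WT senescent replicate 3.

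**Figure D5:**
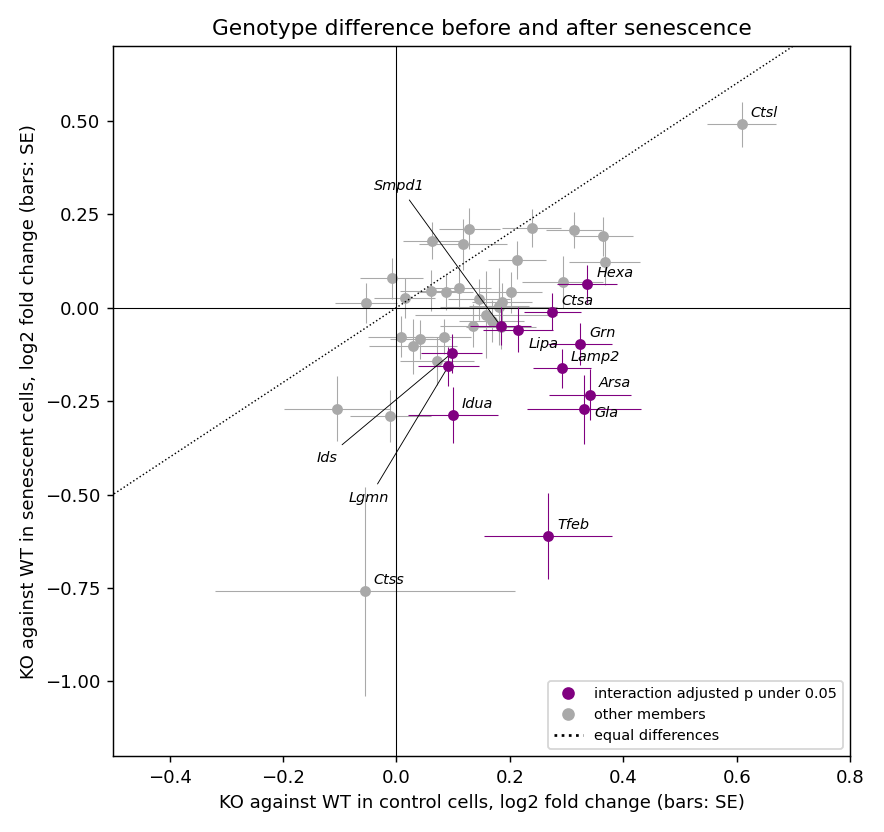
KO against WT log2 fold change in control cells (x axis) and in senescent cells (y axis) for the 45 genes, bars being SE. Coloured points are the 12 genes past the interaction test, all below the dotted line of equal differences, with Tfeb at 0.27 in control and -0.61 in senescent cells.

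Markers of another cell type moved with these results. The 7 cartilage markers (Acan, Col2a1, Sox9 and others), as ear tissue holds cartilage, summed to 8745 to 10808 CPM in WT control, 2665 to 3092 CPM in WT senescent, 5958 to 8272 CPM in KO control and, lowest, 887 to 1085 CPM in KO senescent libraries. All 7 fell in WT and in KO, against 27.0% and 28.6% of all genes. All 7 had a lower interaction, against 11.7% of all genes. The 6 keratinocyte markers summed to 10.2 to 15.6 CPM in WT control and 26.1 to 29.8 CPM in WT senescent libraries. In KO they summed to 11.3 to 13.5 CPM in control and 19.7 to 22.1 CPM in senescent libraries. Of the 4 tested, 3 rose and 0 fell in WT, and 3 rose and 1 fell in KO (log2 fold change -1.32). The interaction was lower for 1 of the 4 (-1.62). Melanocyte markers summed to at most 5.75 CPM and endothelial markers to at most 8.14 CPM in any library. The part of these shifts in the values of the lysosome genes was not tested. The macrophage sum spanned 15.5 to 22.6 CPM in WT control and 19.0 to 23.7 CPM in WT senescent, and 13.7 to 19.1 CPM in KO control and 16.0 to 21.7 CPM in KO senescent libraries, so its groups overlapped, but its genes moved both ways. Of the 6 tested, Cd14 (0.72 and 0.88) and Lyz2 (2.43 and 3.86) rose in WT and in KO, Mrc1 fell in WT (-1.38) and Laptm5 fell in KO (-0.76).

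The lists of other lysosome genes held 117 genes, of which 112 were tested: 70 rose and 13 fell in WT (29.2% and 27.0% of all genes), 62 rose and 14 fell in KO (28.5% and 28.6%), and the interaction was higher for 5 and lower for 17 (9.24% and 11.7%). Of the 17 other proton pump subunits tested, 11 rose and 0 fell in WT and 12 rose and 2 fell in KO, with a median of 0.48 and 0.44. Atp6ap2, an accessory subunit, rose by 1.01 in WT and 1.06 in KO. Atp6v0e2, of the V0 sector, rose by 1.84 in KO and had a WT change of 0.39 (adjusted p = 0.0993), with an interaction of 1.45 (adjusted p = 0.00149). Atp6v0a4, also of the V0 sector, had an interaction of -1.41 (adjusted p = 0.0184): it fell in KO, with a change of -0.97, and had a WT change of 0.44 (adjusted p = 0.215), at 21 to 61 counts a library. Atp6v1c2, of the V1 sector, fell in KO, with a log2 fold change of -1.09. Atp6v0d2, the V0 subunit of osteoclasts and macrophages, had 1, 1 and 0 counts in WT control and 10, 5 and 5 in WT senescent libraries, and 0 counts in each KO control library and 21, 15 and 17 in KO senescent libraries, too few for a fold to be given.

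Among the 29 other hydrolases, 21 rose and 1 fell in WT and 16 rose and 2 fell in KO. Of all genes, 29.2% rose and 27.0% fell in WT, and 28.5% and 28.6% in KO. Ctso, a cysteine cathepsin, rose by 1.82 in WT and 0.69 in KO, with an interaction of -1.13 (adjusted p = 2.32e-05). Ctsc, a dipeptidyl peptidase, rose by 1.69 and 1.02, Dpp7, another dipeptidyl peptidase, by 1.57 and 1.33, and Hyal1, a hyaluronidase, by 1.50 and 1.60. Of the 24 other membrane proteins tested, 16 rose and 2 fell in WT and 11 rose and 2 fell in KO. Tpcn2, an ion channel of the lysosomal membrane, fell in both, with changes of -0.56 in WT and -1.10 in KO.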

How the data were processed

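RNA-seq counts of the 12 libraries were analysed. Per the labels and the study's methods, the authors trimmed reads with Trimmomatic 0.36, mapped them with STAR 2.5.2b to the GRCm38 mouse genome and counted uniquely mapped reads in exons with featureCounts. The deposited values are raw counts, whole numbers per gene, in a table for each genotype; the strand setting is not given in the sources used here. Reads over exons of more than 1 gene may be split or dropped, which touched 16 of the 45 genes, 3 of them on the same strand.

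Libraries were placed in their groups by title. Gene identifiers were given symbols from the GENCODE M21 annotation of GRCm38. Counts of all 12 libraries were fitted with edgeR 4.0.16 (R 4.3.3): low-count genes were removed with filterByExpr over the 4 groups, which left 17416 genes, library sizes were scaled by TMM factors (0.926 to 0.967 in control and 1.04 to 1.07 in senescent libraries), and a robust quasi-likelihood fit without a block gave 5 comparisons. Benjamini-Hochberg adjustment ran over the whole set of 17416 genes, with a threshold of 0.05, and a DEG also had a log2 fold change over 1 in size. The SE is the absolute log2 fold change divided by the square root of F. RPKM divides CPM by the exon length in kilobases. The fit was also run on simulated counts with known changes, raised and lowered in a small set of genes. That run does not cover changes in many genes at once, as seen here with senescence. Replicates of a group were not identical and differed by more than sampling noise (chi-square per gene 3.03 to 17.4). DESeq2 1.42.0, 3 other scalings, another filter, separate fits, a replicate block and leaving out each library were tried as alternatives.

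The 45 genes, the other lists and the markers were chosen with earlier results of these data known. All 45 genes are named. Values in every library are given for Glb1, Tfeb, Tfe3, Mcoln1, Ctss, DEGs, the 3 largest and 3 smallest interactions past the test and the extremes of each role in WT, and Grn was added after its values were seen. Of the other lists, DEGs are named, at most 4 a list; Atp6v0a4 and the markers with values were added after their values were seen.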

Additional observations from a re-analysis of the deposited data

Results flagged for a closer look

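The senescence response differed between WT and KO by the test of the difference itself (the interaction, edgeR, Benjamini-Hochberg adjusted p under 0.05) in 12 of the 45 genes. In each, the senescence log2 fold change was lower in KO than in WT. Of the 12, Hexa, Gla, Arsa, Smpd1, Lipa, Ctsa, Grn and Lamp2 were higher in KO than in WT among control cells. For Gla, Smpd1 and Lipa that control-cell call was lost in 8, 7 and 4 of 19 alternatives. Among senescent cells, Hexa, Ids, Smpd1, Lipa, Ctsa and Grn did not pass the test between genotypes. The interaction log2 fold change was -0.88 for Tfeb, -0.60 for Gla, -0.57 for Arsa, -0.45 for Lamp2, -0.42 for Grn, -0.39 for Idua, -0.29 for Ctsa, -0.27 for Hexa, -0.27 for Lipa, -0.25 for Lgmn, -0.23 for Smpd1 and -0.22 for Ids. Across all genes tested 11.7% were lower and 9.24% higher. The interaction calls of Idua, Ids, Smpd1, Lipa and Lgmn were lost in 1, 12, 11, 9 and 5 of 19 alternatives. Groups of 3 libraries are too small for a test of single outlying libraries.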

How the results depend on the processing

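Whether replicate numbers pair the libraries is not known. Of 18 pairs of libraries with the same number, 2 had a correlation of deviations over 0.1 (range -0.13 to 0.13). Between control and senescent libraries, same-number pairs had 0.01, 0.04 and 0.11 in WT and -0.13, 0.05 and -0.10 in KO. These values cannot exclude a pairing. With the replicate block over all groups, 36 genes were higher and 3 lower in WT senescence, 30 and 7 in KO senescence, 14 had a lower interaction, 21 were higher in KO control and 6 higher and 8 lower in KO senescent cells; with the block within genotype, 11 had a lower interaction and 6 fell in KO. The block moved no count by over 1.5 times.

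With total counts in place of TMM factors, the median of all genes moved up by 0.17 in WT and 0.15 in KO, so directions are relative to that shift: 1 gene fell and 11 were DEGs in WT, 4 fell in KO, and the change of Tfe3 turned to 0.0161 in WT and 0.0110 in KO. Across all genes that scaling gave 7000 higher and 3213 lower in WT, against 5093 and 4702, and 6703 and 3618 in KO, against 4964 and 4983. With DESeq2 size factors, 5 genes were lower in KO among senescent cells.

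Leaving out each library in turn gave 33 to 37 higher, 2 to 3 lower and 5 to 7 DEGs in WT, and 29 to 30 higher, 5 to 8 lower and 2 to 4 DEGs in KO, with 0 to 2 DEGs in the lower direction (Ctss and Tfeb). It gave 7 to 15 lower interactions, with 0 to 1 of them past a log2 size of 1 (Tfeb). In KO control cells 12 to 20 genes were higher, and in KO senescent cells 4 to 8 were higher and 3 to 9 lower. The median log2 fold change of the 45 genes stayed between 0.56 and 0.58 in WT and between 0.38 and 0.44 in KO. Across all genes, 437 in place of 864 were lower in KO control without KO control replicate 3, and 911 in place of 1405 higher without WT control replicate 1. The SE of the WT senescence change was 0.05 to 0.12 for the 45 genes except Ctss (0.27), which limits how small a change these libraries could show. The causes of these differences were not tested.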

Other observations

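Genes that deliver enzymes to the lysosome did not rise together. Of the 11 genes of enzyme sorting and activation, 5 rose and 5 fell in WT and 5 rose and 3 fell in KO, and none was a DEG, where 29.2% of all genes rose and 27.0% fell in WT and 28.5% and 28.6% in KO. Gnptab, a subunit of the phosphotransferase that starts the mannose 6-phosphate tag, fell in both, by log2 values of -0.72 in WT and -0.88 in KO. Sort1, an alternative sorting receptor, rose by 0.84 in WT and 0.94 in KO, and Igf2r, the large mannose 6-phosphate receptor, by 0.27 and 0.19. These 3 genes, and Mitf below, were chosen after their values were seen.

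Of 15 tested genes of the TFEB family and of the machinery that docks mTORC1 on lysosomes, 8 rose and 1 fell in WT and 8 rose and 0 fell in KO (shares of all genes as above). Rragd, a small GTPase of that machinery, had 2.17, 1.91 and 0.632 CPM in WT control and 4.52, 3.94 and 3.59 CPM in WT senescent libraries. In KO, Rragd had 0.960, 0.808 and 1.16 CPM in control and 5.79, 4.93 and 6.89 CPM in senescent libraries. The groups did not overlap in either genotype, Rragd rose by 1.34 in WT and 2.60 in KO, and its interaction was 1.26 (edgeR adjusted p = 0.0373), opposite in sign to that of Tfeb. Mitf, a relative of Tfeb, rose by 0.59 and 0.54. Of 16 autophagy genes, 9 rose and 4 fell in WT and 10 rose and 5 fell in KO (shares of all genes as above), and Sqstm1, an autophagy receptor, rose by 1.05 and 1.37.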
